A study of Mus musculus with 6 samples.

Results

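The genes described here are the 3 peroxisome proliferator-activated receptors (Ppara, Ppard and Pparg), their partner Rxra, the oxysterol receptor Nr1h3, the liver transcription factor Creb3l3 and the output genes Angptl4 and Lpin1. They were chosen by name: all probe sets whose only gene symbol in the array's annotation is one of these 8 were taken, which gave 15 of 45101 probe sets and 8 of 18193 genes measured. Liver RNA of NZO mice was set against liver RNA of C57BL/KS (BKS) mice, with 3 arrays per strain. All 6 were males of 18 weeks on standard chow, no group carried a transgene or a treatment according to the labels, and the submitters describe them as littermates but link no 2 of them. NZO (New Zealand Obese) mice become obese and diabetic on ordinary chow, and BKS mice were the strain they were set against. Both are inbred strains that differ at many loci, so strain and disease cannot be told apart here. The labels do not say outright that each array is a separate animal, so the p-values speak for the spread among these samples, which may be technical.

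PPARs are nuclear receptors that bind fatty acids and their derivatives, pair with RXR and switch on genes from response elements built of repeated half-sites. PPAR alpha drives fatty acid oxidation in the fasting liver, PPAR delta acts in many tissues, and PPAR gamma is best known from adipose tissue and rises in many fatty livers. LXR alpha, the product of Nr1h3, senses oxysterols, also pairs with RXR, and drives sterol efflux and fatty acid synthesis. CREBH, the product of Creb3l3, is held in the endoplasmic reticulum membrane until it is cleaved, and then works with PPAR alpha on fasting and lipoprotein genes. Angptl4 is a secreted inhibitor of lipoprotein lipase and a PPAR target. Lpin1 encodes a phosphatidate phosphatase of triglyceride synthesis that also acts as a coactivator of PPAR alpha in the nucleus.

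The promoter windows of Rxra, Creb3l3 and Lpin1 are shown because Rxra and Lpin1 had the largest negative and positive differences among the 8 genes, and because all 3 windows hold the half-site AGGTCA that these receptors recognise. Each window runs from 250 bases before to 50 bases after an annotated start in RefSeq (GRCm38.p6), is written 5' to 3' on the gene's strand, and has the half-site in capitals on either strand, where TGACCT is the half-site read on the opposite strand. The Rxra window is its second, at chr2:27709042-27709341 on the plus strand. The Creb3l3 window is its first by coordinate, at chr10:81092542-81092841 on the minus strand, and the only Lpin1 window lies at chr12:16610917-16611216 on the minus strand.
Rxra: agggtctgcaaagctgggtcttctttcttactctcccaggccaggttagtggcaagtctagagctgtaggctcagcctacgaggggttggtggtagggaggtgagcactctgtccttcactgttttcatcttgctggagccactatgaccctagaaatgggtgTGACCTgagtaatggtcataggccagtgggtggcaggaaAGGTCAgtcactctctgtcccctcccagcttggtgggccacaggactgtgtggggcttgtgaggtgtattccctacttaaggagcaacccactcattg
Creb3l3: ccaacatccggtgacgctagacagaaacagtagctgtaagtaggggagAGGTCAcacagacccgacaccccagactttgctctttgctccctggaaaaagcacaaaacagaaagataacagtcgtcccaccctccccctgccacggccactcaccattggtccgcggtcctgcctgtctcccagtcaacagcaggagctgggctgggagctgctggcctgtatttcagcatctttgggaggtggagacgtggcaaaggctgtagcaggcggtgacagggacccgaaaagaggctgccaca
Lpin1: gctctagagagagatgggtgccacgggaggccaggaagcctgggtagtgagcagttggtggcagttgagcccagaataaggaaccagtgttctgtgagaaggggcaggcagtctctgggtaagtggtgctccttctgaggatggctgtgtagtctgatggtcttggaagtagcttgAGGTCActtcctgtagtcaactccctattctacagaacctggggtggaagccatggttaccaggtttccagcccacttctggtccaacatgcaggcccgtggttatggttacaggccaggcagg
Rxra has 2 half-sites here, whose first bases lie 87 and 48 bases before the start. The Creb3l3 half-site begins 202 bases and the Lpin1 half-site 74 bases before the start. Pparg also has 1 half-site in each of 2 of its 3 windows, beginning 28 and 9 bases before the start. RefSeq windows were matched for 7 of the 8 genes (12 windows), and Angptl4 had no entry. The half-site occurred in 5 of these 12 windows, and in 16.3% of all 32851 windows of 300 bases. Direct repeats of the half-site with 1 free base between the copies (the PPAR and RXR type) and with 4 (the LXR type) were searched on both strands. They contain the half-site by construction, and they occurred in none of the 12 windows and in 0.0396% and 0.0152% of all windows. A match of letters is a description and shows no bound site, and no match says only that these letters are not in the window.

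Values are log2 signals made by the authors with RMA, so a difference of 1 is a 2-fold change. They carry no detection call, and the array medians lay between 5.08 and 5.22, so signals below 6 are treated as dim. The replicate 1 arrays of both strains, which are the arrays titled number 1, stood apart: 9 spiked-in hybridization control probe sets averaged 7.88 in NZO replicate 1 and 8.90 in BKS replicate 1, against 9.78 to 11.2 on the other 4 arrays. On NZO replicate 1 bright genes read low. Its difference from the mean of NZO replicates 2 and 3 had a median of -1.01 over the 1821 genes with a mean of at least 10, and of -0.02 over the 8571 genes with a mean below 6. Beta-actin 3' minus 5' signal, a measure of truncated RNA or cDNA, was 1.29 to 1.39 in NZO and 1.72 to 2.33 in BKS. That of Gapdh was -0.04 to 0.14 in NZO and 0.45 to 0.98 in BKS, so these measures moved with strain. An 18S RNA probe set read 5.11, 6.14 and 5.38 in NZO, against 4.93, 11.9 and 9.47 in BKS, which sets the strains apart once the replicate 1 arrays are left out. The part of these measures in the results was not tested. The 10 hepatocyte markers measured averaged 12.9 to 14.0 in NZO and 13.8 in each BKS array. The 10 markers of sinusoidal endothelium averaged 6.96 to 7.79 in NZO and 6.67 to 6.98 in BKS, with 0 past the test. With the replicate 1 arrays as a block 3 of them were higher, where 1.51% of all genes were. Markers of stellate cells, cholangiocytes, lymphocytes, skeletal muscle and pancreas had 0 past the test as well. With the block 1 pancreas marker was lower, where 5.04% of all genes were. Without the replicate 1 arrays 5 of 12 Kupffer cell and macrophage, 3 of 10 endothelial, 2 of 10 stellate cell, 1 of 10 hepatocyte and 1 of 9 adipocyte markers were higher in NZO, where 363 of 18193 genes were.

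None of the 8 genes passed the test between the strains. The test was limma over all 18193 genes with Benjamini-Hochberg adjustment at 0.05, in which 0.742% of genes passed. At an unadjusted p below 0.05 the count was again 0 of the 8, against 11.4% of all genes. Over the 15 probe sets 0 passed (0.424% of all probe sets did), and 2 had an unadjusted p below 0.05 (10.1% of all probe sets). These 2, one of Lpin1 and one of Ppard, were also the only ones of the 15 whose strains did not overlap, both with NZO higher, where 6.83% of all probe sets had NZO wholly above BKS. The median log2 difference (NZO minus BKS) of the 8 genes was -0.13, beside -0.03 over all genes, with 2 genes above 0 and 6 below. With 3 against 3 arrays an exact permutation test of a single value cannot go below p = 0.1. The absence of a call therefore does not show equal levels, and the 95% intervals below give the sizes that remain possible.

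**Figure D1:**
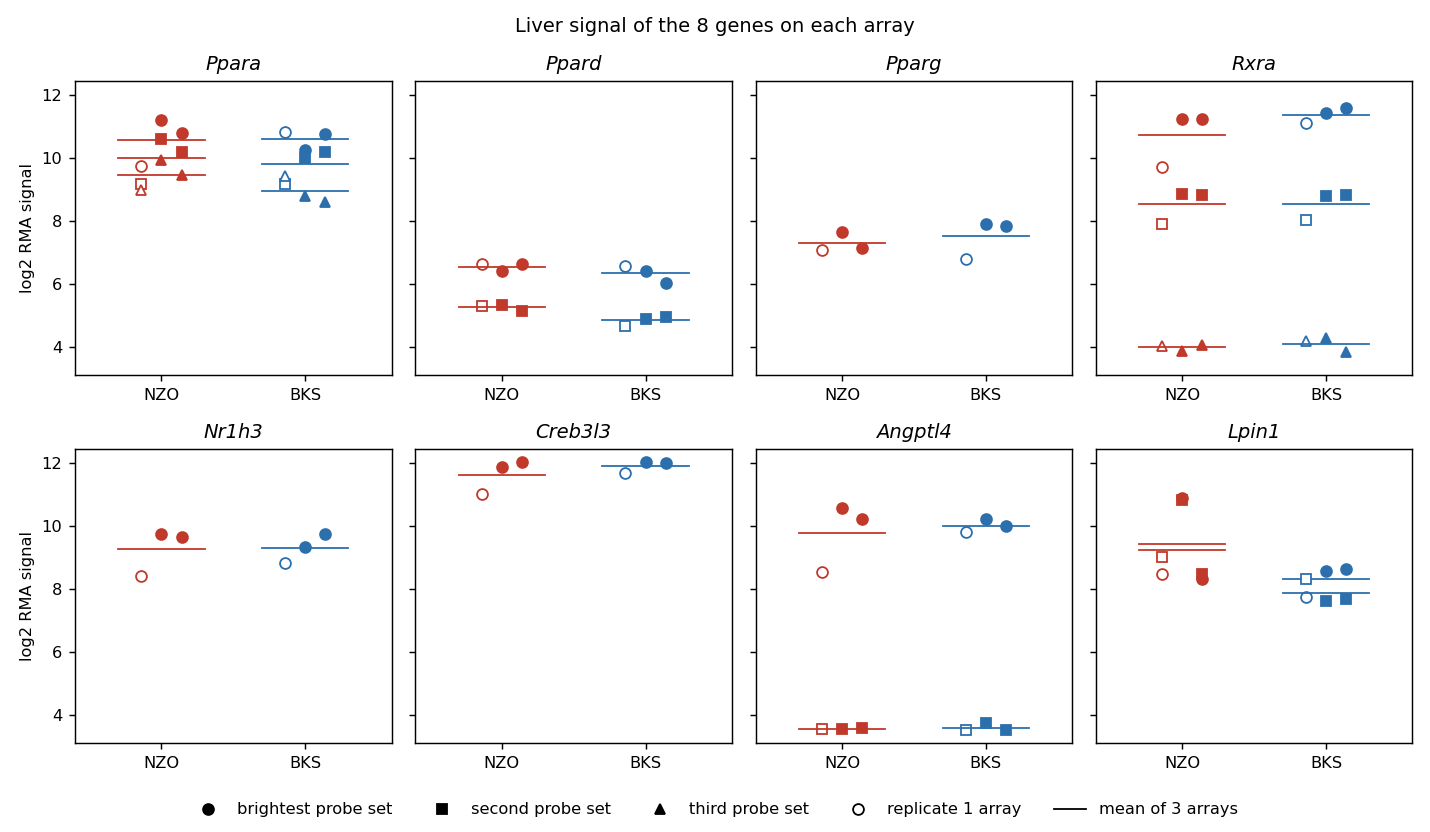
Log2 RMA signal of each probe set of the 8 genes, with NZO left and BKS right in each panel. Points are single arrays, open symbols are the replicate 1 arrays and lines are means of 3 arrays. NZO replicate 1 lies lowest of the 6 arrays at the brightest probe set of Ppara, Rxra, Nr1h3, Creb3l3 and Angptl4, and NZO replicate 2 stands alone above 10 in Lpin1.

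Ppara, the fatty acid sensor of the fasting liver, had a strong signal in both strains and no detectable difference. Its brightest probe set, 1439675_at, read 9.73, 11.21 and 10.79 in NZO replicates 1 to 3, against 10.81, 10.24 and 10.76 in BKS replicates 1 to 3. NZO held both the highest and the lowest array, so the strains overlapped completely. The means were 10.58 ± 0.77 in NZO and 10.60 ± 0.31 in BKS (SD, n = 3 each), a log2 difference of -0.03 (95% interval -0.91 to 0.86, limma adjusted p = 0.989). Changes of up to about 1.88-fold lower or 1.81-fold higher in NZO thus lie within the interval.

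The second Ppara probe set, 1457721_at, read 9.18, 10.60 and 10.17 in NZO, against 9.18, 10.01 and 10.17 in BKS. The third, 1449051_at, read 8.97, 9.94 and 9.44 in NZO, against 9.41, 8.77 and 8.61 in BKS. In the third the ranges overlapped only through the replicate 1 arrays, the lowest of NZO and the highest of BKS. The log2 differences were 0.20 (adjusted p = 0.928) and 0.52 (adjusted p = 0.655). Without the replicate 1 arrays, the third probe set differed by 1.00 (adjusted p = 0.0582) and the brightest by 0.50 (adjusted p = 0.335), both in the limma fit over all probe sets. Between the replicate 1 arrays alone the same probe sets differed by -0.44 and -1.08. The 3 probe sets of one gene share its RNA and are not replicates.

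Ppard, the broadly expressed receptor, was near the dim end of the scale. Its brighter probe set, 1439797_at, read 6.61, 6.39 and 6.62 in NZO, against 6.58, 6.41 and 6.04 in BKS. These 6 values spanned 0.58, with overlap of the strains, and differed by 0.20 on the log2 scale (95% interval -0.24 to 0.64, adjusted p = 0.756). The other probe set, 1425703_at, averaged below 6 and read 5.30, 5.33 and 5.14 in NZO, against 4.67, 4.89 and 4.95 in BKS. All 3 NZO arrays were above all 3 BKS arrays here. The log2 difference was 0.42 (95% interval 0.10 to 0.75, unadjusted p = 0.0184, limma adjusted p = 0.358), so it did not pass, and an exact permutation test gave p = 0.1. It kept its sign in all 13 alternatives that could be computed for it, between 0.32 and 0.62. One further probe set, 1447902_at, carries Ppard together with a second symbol and was left unnamed, because the 2 cannot be told apart there. It averaged 6.71, brighter than both probe sets above, and went the other way. The strains overlapped, and NZO minus BKS was -0.28 (limma adjusted p = 0.818). That difference was -0.59 without the replicate 1 arrays (unadjusted p = 0.0125, adjusted p = 0.151) and 0.33 between the replicate 1 arrays.

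Pparg, the adipose receptor, had a moderate signal and did not pass the test. Its single probe set, 1420715_a_at, read 7.08, 7.64 and 7.12 in NZO, against 6.80, 7.90 and 7.82 in BKS. BKS replicate 1 was the lowest of the 6 arrays, and the other 2 BKS arrays were above all NZO arrays. NZO minus BKS was -0.22 on the log2 scale (95% interval -0.98 to 0.54, adjusted p = 0.861). Changes of up to about 1.97-fold lower or 1.45-fold higher in NZO lie within the interval. Without the replicate 1 arrays the difference was -0.48 (adjusted p = 0.237), and between the replicate 1 arrays it was 0.29. The 9 adipocyte markers measured averaged 7.22 to 7.54 in NZO and 7.37 to 7.77 in BKS, with 0 members past the test. Of these, Adipoq, which defines adipocytes, Lep, Cidec and Trarg1 averaged below 6 over the 6 arrays. The other 5, Retn, Fabp4, Lpl, Car3 and Scd1, averaged at least 6. In whole liver, fewer cells of a type and less RNA per cell cannot be told apart.

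Rxra, which encodes an RXR partner of PPARs and LXR, had the largest negative difference of the 8 genes, and it came mostly from 1 array. Its brightest probe set, 1454773_at, read 9.71, 11.22 and 11.22 in NZO, against 11.10, 11.41 and 11.57 in BKS. NZO replicate 1 was far below the rest, while NZO replicates 2 and 3 fell inside the BKS range. The means were 10.72 ± 0.87 in NZO and 11.36 ± 0.24 in BKS (SD, n = 3 each), a log2 difference of -0.64 (95% interval -1.60 to 0.31, adjusted p = 0.619). Without NZO replicate 1 it was -0.14, and with the replicate 1 arrays as a block in the fit the unadjusted p was 0.0203 and the adjusted p 0.133. The second probe set, 1425762_a_at, read 7.91, 8.84 and 8.83 in NZO, against 8.02, 8.79 and 8.81 in BKS. Both replicate 1 arrays were the low ones there, and the log2 difference was -0.02 (adjusted p = 0.993). The third, 1430497_at, stayed between 3.85 and 4.27 on all 6 arrays, which leaves little signal to compare.

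Nr1h3, which encodes the oxysterol receptor LXR alpha, did not differ detectably. Its single probe set, 1450444_a_at, read 8.39, 9.74 and 9.62 in NZO, against 8.81, 9.34 and 9.73 in BKS. Within each strain the replicate 1 array was the low one, and the ranges overlapped almost fully. NZO minus BKS was -0.04 (95% interval -0.97 to 0.89, adjusted p = 0.984). Nr1h3 is also active in macrophages. The 12 Kupffer cell and macrophage markers averaged 7.25 to 8.20 in NZO and 7.21 to 8.02 in BKS, with 0 members past the test. Without the replicate 1 arrays their median log2 difference was 0.58 and 5 rose, while Nr1h3 was at 0.15 (adjusted p = 0.716). Their part in the Nr1h3 signal was not tested.

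Creb3l3, which encodes the membrane-bound factor CREBH, had a high signal on every array. Its single probe set, 1424688_at, read 10.99, 11.85 and 12.01 in NZO, against 11.68, 12.00 and 11.99 in BKS. NZO replicate 1 was again the lowest and the other 5 arrays lay close together. A log2 difference of -0.28 resulted (95% interval -0.93 to 0.38, adjusted p = 0.780), and 0.04 without NZO replicate 1 (adjusted p = 0.961).

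Angptl4, the lipase inhibitor that PPARs induce, did not pass the test, and its direction hung on 1 array. Its brighter probe set, 1417130_s_at, read 8.53, 10.54 and 10.20 in NZO, against 9.79, 10.22 and 9.98 in BKS. NZO replicate 2 was above the BKS range, NZO replicate 3 inside it and NZO replicate 1 more than 1 unit under it. The strains differed by -0.24 on the log2 scale (95% interval -1.38 to 0.90, adjusted p = 0.907), 0.37 without NZO replicate 1 (adjusted p = 0.498) and -0.64 without NZO replicate 2. The suffix _s_at marks a probe set whose probes can match more than 1 transcript. The second probe set, 1453410_at, lay between 3.51 and 3.74 on all 6 arrays and carried little signal.

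Lpin1, the phosphatidate phosphatase and PPAR alpha coactivator, had the largest positive difference of the 8 genes, and 1 array carried most of it. Its brighter probe set, 1418288_at, read 8.47, 10.88 and 8.31 in NZO, against 7.74, 8.54 and 8.63 in BKS. NZO replicate 2 stood more than 2 units above every other array, while the other 2 NZO arrays lay inside the BKS range. The means were 9.22 ± 1.44 in NZO and 8.30 ± 0.49 in BKS (SD, n = 3 each), a log2 difference of 0.92 or 1.89-fold (95% interval -0.63 to 2.47, adjusted p = 0.670). Without NZO replicate 2 it was 0.09.

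The second Lpin1 probe set, 1426516_a_at, read 8.997, 10.80 and 8.48 in NZO, against 8.31, 7.59 and 7.67 in BKS. Here all 3 NZO arrays exceeded all 3 BKS arrays, though NZO replicate 3 was only just above BKS replicate 1. The log2 difference was 1.57 or 2.96-fold (95% interval 0.20 to 2.93, unadjusted p = 0.0298, limma adjusted p = 0.415), and an exact permutation test gave p = 0.1. It did not pass. It was 0.88 without NZO replicate 2 and 2.01 without the replicate 1 arrays (adjusted p = 0.174). The 2 Lpin1 probe sets agreed on NZO replicate 2 and differed in how they ordered the BKS arrays: BKS replicate 1 was the lowest BKS array in the first and the highest in the second.

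**Figure D2:**
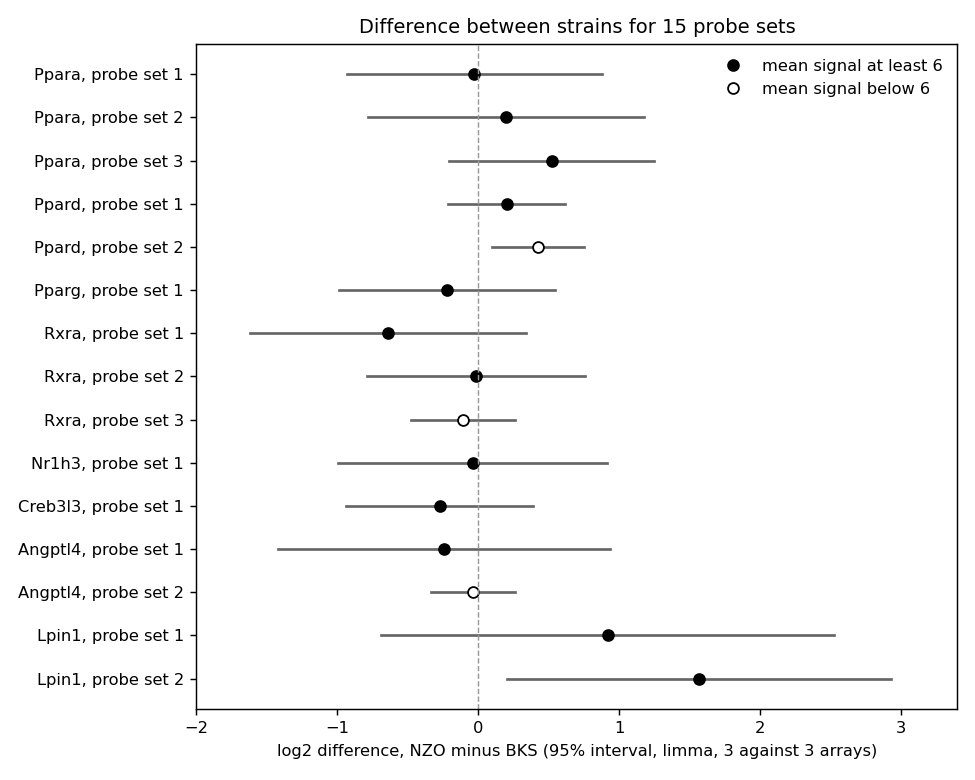
Log2 difference (NZO minus BKS) of the 15 probe sets with its 95% interval from the limma fit over all 45037 probe sets that are no controls. Probe sets are numbered from the brightest, and open points have a mean signal below 6. Only the second probe sets of Ppard (0.42) and Lpin1 (1.57) have intervals that leave out 0, and neither passed after adjustment.

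The replicate 1 arrays bear on most of these values. NZO replicate 1 was the lowest of the 6 arrays for 5 of the 8 genes and under the mean of NZO replicates 2 and 3 for 7. Its gap to that mean was -1.84 for Angptl4, -1.51 for Rxra, -1.29 for Nr1h3, -1.27 for Ppara, -1.13 for Lpin1 and -0.94 for Creb3l3. Over all genes with a mean of at least 10, the middle 50% of such gaps ran from -1.20 to -0.80, and from -0.94 to -0.42 over genes with a mean from 8 to 10. Creb3l3 thus lay within the range for its brightness, and Angptl4, Rxra, Nr1h3, Ppara and Lpin1 lay below theirs, for Lpin1 with the high NZO replicate 2 in the mean. The hybridization controls were also lowest on this array, and their part in these gaps was not tested. Without the replicate 1 arrays, 5 of the 8 genes were above 0 and the median difference was 0.21, beside 0.00 over all genes. Between the replicate 1 arrays alone, 5 were below 0 and the median was -0.55, beside -0.12 over all genes. In the comparison of 2 against 2 arrays 0 of the 8 genes passed, where 5.01% of all genes did, and with the replicate 1 arrays as a block again 0, where 6.55% did. At an unadjusted p below 0.05 each of these fits had 1 of the 8, Pparg without the replicate 1 arrays, where 20.8% of all genes were, and Rxra with the block, where 22.8% were.

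**Figure D3:**
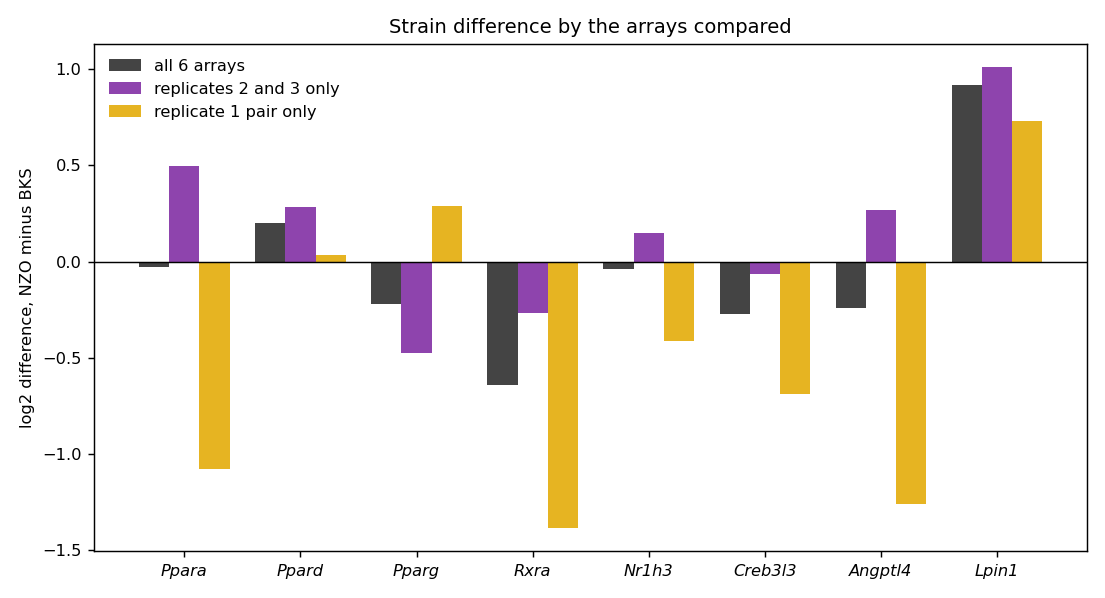
Log2 difference (NZO minus BKS) of the 8 genes by the arrays compared, as bars from 0: all 6 arrays, replicates 2 and 3 of each strain, and the replicate 1 pair. Rxra and Creb3l3 stay below 0 and Lpin1 and Ppard above 0 in all 3, while Ppara, Nr1h3, Angptl4 and Pparg change sign between the last 2 comparisons.

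Several listed PPAR targets passed the test, and the receptors did not. Whether targets and receptors differ in this was not tested. Of 27 measured PPAR alpha targets 6 rose in NZO, 0 fell and 21 did not pass, with a median log2 difference of 0.18 beside -0.03 over all genes and 20 members above 0. Over all genes 0.324% rose and 0.418% fell. The fatty acid hydroxylase Cyp4a14 read 11.05, 12.42 and 12.47 in NZO, against 6.33, 4.98 and 4.82 in BKS (log2 difference 6.61 ± 0.51 SE, adjusted p = 0.00304). The fatty acid transporter Cd36 rose by 4.30 (adjusted p = 0.0184), the acyl-CoA thioesterase Acot3 by 2.99 (adjusted p = 0.0482) and Pdk4, a kinase that blocks pyruvate dehydrogenase, by 2.52 (adjusted p = 0.0159). Leaving out any 1 array kept the Cyp4a14 call. For Cd36 the call was lost without NZO replicate 2 or 3 or without any BKS replicate (adjusted p = 0.0556 to 0.126), for Acot3 without NZO replicate 2 or any BKS replicate (0.0630 to 0.28) and, at the same log2 difference, when other genes were given by the mean of their probe sets (0.055) or by other probe sets (0.0509), and for Pdk4 without NZO replicate 2 or 3 or BKS replicate 2 or 3 (0.0619 to 0.108). Without the replicate 1 arrays 8 of the 27 rose, where 5.01% of all genes passed in either direction and 2% rose. With any 1 array left out between 1 (without BKS replicate 3) and 6 (without NZO replicate 1) rose, where 0.055% and 0.824% of all genes did. The number was 2 without NZO replicate 2 or BKS replicate 2 and 3 without NZO replicate 3 or BKS replicate 1. This list was drawn up with earlier results of these arrays known, so its count is not independent evidence of its direction. Angptl4, a PPAR target by the same background, differed by -0.24, and whether it differs from the other targets was not tested.

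The PPAR gamma and PPAR delta lists overlapped with it. Of 13 measured PPAR gamma targets of fatty liver 3 rose and 0 fell (median 0.33). They were Cd36, the acyltransferase Mogat1 (log2 difference 1.92, adjusted p = 0.0286) and the lipoprotein receptor Vldlr (1.91, adjusted p = 0.00648), the last with a mean of 5.79 in NZO and 3.88 in BKS. The mean over all Vldlr probe sets gave 0.59 (adjusted p = 0.0943), and a choice that avoids probe sets with the suffix _s_at, _x_at or _a_at gave 0.39 (adjusted p = 0.512). Mogat1 did not pass without any one array other than NZO replicate 1 (adjusted p = 0.0587 to 0.149), nor Vldlr without BKS replicate 2 or 3 (0.0568 and 0.0643). Of 8 PPAR delta targets 2 rose, Pdk4 and Vldlr, and 0 fell (median 0.08). With 1 array left out the PPAR gamma count ran from 0 to 3 and the PPAR delta count from 0 to 2, both at 0 without BKS replicate 2 or 3. Calls became fewer over all genes as well, with 0.0715% higher without BKS replicate 2 and 0.055% without BKS replicate 3. That share was 0.324% with all 6 arrays and at most 0.824% with 1 array left out. The PPAR gamma count was 1 without NZO replicate 2 or 3 or BKS replicate 1, and the PPAR delta count was 1 without NZO replicate 2 or 3.

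None of 23 measured LXR targets passed (median -0.14, 9 above 0). With the replicate 1 block 2 of them fell, where 5.04% of all genes did. Without the replicate 1 arrays 1 rose, where 2% of all genes did. The sterol exporter Abca1 was at -0.81 (adjusted p = 0.136, and 0.0294 with the replicate 1 block), and the lipase gene Lpl, whose product Angptl4 inhibits, at -1.54 (adjusted p = 0.230). The mean over all Abca1 probe sets gave 0.52 (adjusted p = 0.578), the opposite direction. Of 22 CREBH targets 1 rose, the apolipoprotein gene Apoa4, and 0 fell (median 0.19). The count of CREBH targets that rose was 3 with the replicate 1 block, without the replicate 1 arrays and with array weights, 4 with cyclic loess and 2 with repeated quantile normalization. Over all genes 1.51% rose with the block, 2% without the replicate 1 arrays and 2.19% with array weights. The share was 1.14% with cyclic loess and 1.07% with repeated quantile normalization. The CREBH count was 0 without any one array other than NZO replicate 1, where 0.055% to 0.187% of all genes rose. It was also 0 with either other choice of probe set, where 0.313% and 0.319% rose. Apoa4 read 12.03, 13.04 and 13.04 in NZO, against 10.02, 10.62 and 10.81 in BKS (log2 difference 2.22, adjusted p = 0.0391). It did not pass without any one array other than NZO replicate 1 (adjusted p = 0.0871 to 0.207), nor as the mean of its probe sets (0.0784).

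Other receptors and cofactors gave no call in the fit of all 6 arrays without block or weights. None of 24 RXR partners and related nuclear receptors passed (median -0.14). With array weights 1 of them rose, where 2.19% of all genes did, and without the replicate 1 arrays 1, where 2% did. The retinoic acid receptor Rarb was at 0.68 (adjusted p = 0.348) and Rxrb, a second RXR gene, at -0.51 (adjusted p = 0.413). None of 23 coactivators and corepressors passed either, with 3 above 0 and a median of -0.36. The coactivators Ncoa6 and Ppargc1b were at -0.72 (adjusted p = 0.118) and -0.80 (adjusted p = 0.195). With the replicate 1 block 4 of this list fell, where 5.04% of all genes did. The number was 6 with array weights, where 4.94% fell, and 2 without the replicate 1 arrays, where 3.02% fell. Among 17 membrane-bound relatives of Creb3l3 and the proteins that process them 0 passed (median -0.46), with Creb3l2 at -0.82 (adjusted p = 0.311) and Xbp1 at -0.95 (adjusted p = 0.383). With the replicate 1 block 1 of these 17 fell, and 1 with array weights, where 5.04% and 4.94% of all genes did. Over all genes the median was -0.32 at a mean of at least 10 and -0.29 from 8 to 10. It was -0.05 from 6 to 8 and 0.04 below 6. The lists hold genes of different brightness, and its part in these list medians was not tested.

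The genes around the outputs gave 3 calls, where 0.324% of all genes rose and 0.418% fell. Among 21 genes of the lipin family and glycerolipid synthesis 2 rose, the acyltransferases Gpat3 (log2 difference 3.25, adjusted p = 0.00352) and Mogat1, and 0 fell (median -0.12). Gpat3 kept its call with any 1 array left out. Among 18 genes of the Angptl family and lipoprotein lipase control 1 fell, Sel1l, which aids the maturation of lipoprotein lipase, and 0 rose (median -0.04). Sel1l was at -1.05 (adjusted p = 0.0481), did not pass without any one array other than NZO replicate 1 (adjusted p = 0.0951 to 0.264), and was at 0.15 as the mean of all its probe sets. The call was also lost with repeated quantile normalization (0.128), cyclic loess (0.134), the filter on dim genes (0.0661) and the other variance model (0.2). In the Angptl list 1 rose and 2 fell with the replicate 1 block, where 1.51% and 5.04% of all genes did. Without the replicate 1 arrays 2 rose and 2 fell, where 2% and 3.02% did. In the lipin list 2 rose and 1 fell in each of these fits. None of 19 genes responsive to fasting or glucocorticoid passed (median -0.25), with Foxo1 at -1.37 (adjusted p = 0.0775) and Obp2a, listed by its older name Lcn13, at -1.76 (adjusted p = 0.0996). With the replicate 1 block 4 of them rose, where 1.51% of all genes did, and 3 fell, where 5.04% did. Without NZO replicate 1, 2 Angptl family genes, 1 RXR partner and 1 fasting gene rose (0.824% of all genes did), and without NZO replicate 2, 1 fasting gene fell (0.33% of all genes did). Between the replicate 1 arrays alone all 11 list medians were below 0, beside -0.12 over all genes. Among them were the PPAR alpha (-0.04), PPAR gamma (-0.14), PPAR delta (-0.22) and CREBH (-0.25) medians, which were above 0 with all 6 arrays. Under the other 15 alternatives 6 of the 11 list medians changed sign at least once. Those of the LXR, lipin and Angptl lists turned positive with repeated quantile normalization (0.10, 0.05 and 0.11), and that of the RXR partners as the mean of probe sets (0.05). That of the PPAR gamma list was -0.10 when probe sets with the suffix _s_at, _x_at or _a_at were avoided, and that of the PPAR delta list was -0.10 with the filter on dim genes and -0.07 as the mean of probe sets.

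**Figure D4:**
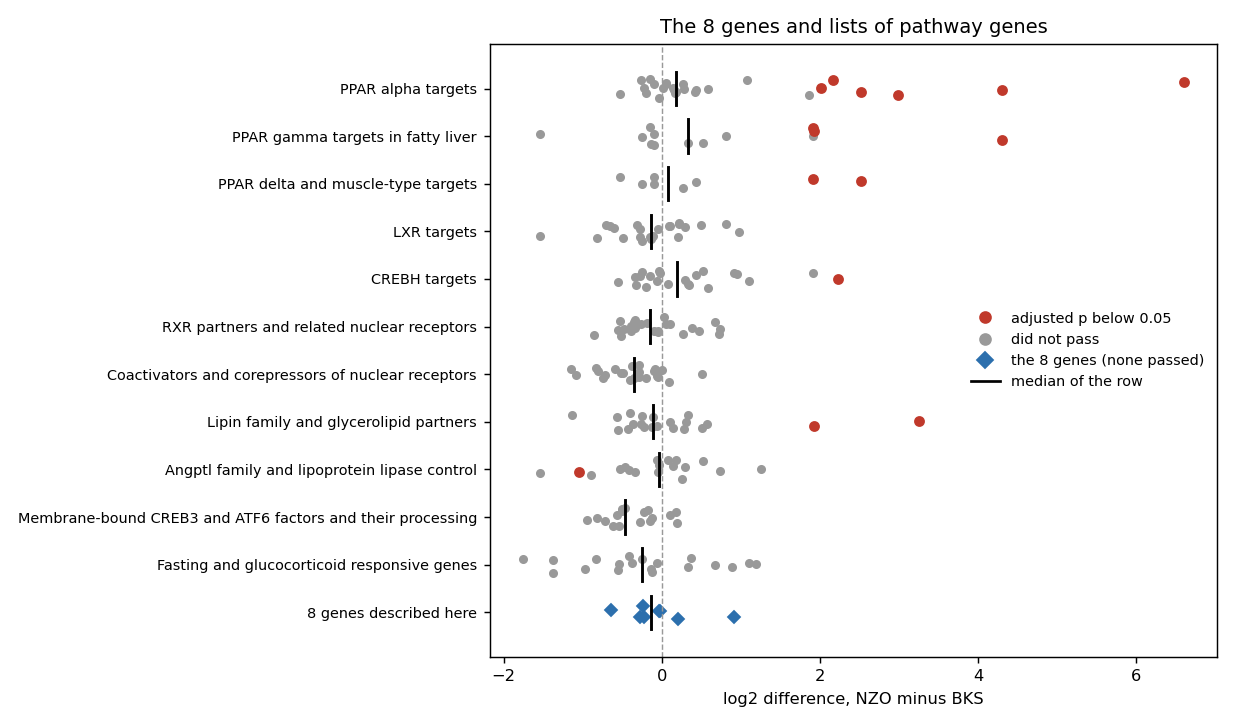
Log2 difference (NZO minus BKS) of each measured gene in 11 lists and of the 8 genes described here. Red points passed the limma test, grey points did not, and black bars are medians. Of 27 PPAR alpha targets 6 are red, other lists hold calls too and share some of these genes, and the 8 genes (diamonds) lie between -0.64 and 0.92.

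The genes whose pattern over the 6 arrays was most like each member were read from up to 6930 genes with a mean of at least 6 and an SD of at least 0.3, as Pearson correlations. For Rxra they were F10, Ndrg2 and Scpep1 (0.997 to 0.999), for Creb3l3 Gnai2, Pxmp2 and Jpt1 (0.999 each) and for Nr1h3 Cir1, Slc47a1 and Ilkap (0.997 to 0.998). For Angptl4 they were Rps7, Spcs1 and F13b (0.995 to 0.997), for Ppara Iqgap1, Hsd17b7 and Vim (0.972 to 0.992) and for Pparg Tmem107, Cul4a and Foxo3 (0.992 to 0.994). For Ppard they were Arntl, Hoxa7 and Sv2a (0.939 to 0.969), and for Lpin1 Lrrc40, Abca6 and Chac2 (0.974 to 0.986). The points share the 6 arrays, the low NZO replicate 1 among them, and the values are a description. Without the 2 arrays farthest from the member's median, the likeness of Abca6 to Lpin1 was 0.38, that of Sv2a to Ppard 0.68 and that of Chac2 to Lpin1 0.70, so these rest on those arrays. The others stayed between 0.82 and 1.00.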

How the data were processed

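RNA of 6 male mouse livers (3 NZO and 3 BKS, all 18 weeks old) was measured on a 3' expression array. The submitters' processing notes name Affymetrix Expression Console and RMA, and the deposited table holds the authors' log2 signals. RMA corrects background, quantile-normalizes across arrays and summarises each probe set, which can narrow differences of dim genes. Versions, and whether other arrays were normalized together, are not given in the sources used here. Precision is limited by how few arrays there are.

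Arrays were grouped by their strain label. Replicate numbers follow accession order and pair nothing. Probe sets were named from the array's platform table and updated by gene ID through RefSeq names (GRCm38.p6), used for names and promoter sequences only. Of 45101 probe sets 34945 had 1 symbol, 932 had several and stayed unnamed, and 9160 others were not listed there. The 64 controls were left out. Each gene is represented by its brightest probe set (largest 6-array mean), for 18193 genes in all. Listed genes without such a probe set are not analysed here.

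Strain differences come from limma 3.58.1 under R 4.3.3 (functions lmFit and eBayes, two-sided, no covariate), with Benjamini-Hochberg adjustment over all genes, or over all 45037 probe sets for values of single probe sets that do not represent their gene. A call is an adjusted p below 0.05. The fit was tested on simulated data. All differences are NZO minus BKS. Named genes are the 8 members, up to 4 called genes per list with the largest change or otherwise the 2 with the smallest p, and the 3 nearest patterns per member. The members, lists and alternatives were chosen with earlier results of these data known. Alternatives were repeated quantile normalization, cyclic loess, a filter on dim features, another variance model, array weights, the replicate 1 arrays as a block, 2 against 2 arrays, the replicate 1 pair, other choices of probe set and each array left out. Plots used matplotlib 3.10.9 (Python 3.11.15).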

Additional observations from a re-analysis of the deposited data

How the results depend on the processing

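No member gene and no member probe set passed under any alternative in which a test was run: the lowest adjusted p was 0.0582, for the third Ppara probe set without the replicate 1 arrays. Of the directions, that of Lpin1, Ppard, Pparg and Rxra held in every alternative with a test, and others crossed 0. The values with opposite sign were, with repeated quantile normalization, 0.25 for Ppara, 0.16 for Nr1h3, 0.0081 for Creb3l3 and 0.15 for the second Rxra probe set. With cyclic loess they were 0.28, 0.22, 0.065 and 0.20 in the same order and 0.035 for Angptl4. With array weights they were 0.28 for Ppara, 0.12 for Nr1h3, 0.069 for Angptl4 and 0.0055 for the second Rxra probe set, and without the replicate 1 arrays 0.50, 0.15, 0.27 and 0.029. The mean of all probe sets gave 0.23 for Ppara, 0.52 for Abca1 and 0.15 for Sel1l. With 1 array left out, values ran from -0.35 to 0.40 for Ppara, -0.28 to 0.39 for Nr1h3, -0.47 to 0.038 for Creb3l3, -0.64 to 0.37 for Angptl4, -0.11 to 0.60 for the second Ppara, -0.28 to 0.29 for the second Rxra and -0.076 to 0.037 for the second Angptl4 probe set. They ran from 0.09 to 1.37 for Lpin1, from 0.05 to 0.32 for Ppard, from -0.58 to -0.03 for Pparg and from -0.89 to -0.14 for Rxra. The cause of these changes was not tested.

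Genes past the test numbered 135, and 436 with repeated quantile normalization, 429 with cyclic loess, 281 with the other variance model, 1298 with array weights, 1192 with the replicate 1 block, 912 without the replicate 1 arrays, and 27 to 258 with 1 array left out. Probe sets past the test numbered 191, and in the same order 600, 583, 373, 829, 1336 and 1192, with 26 to 272 with 1 array left out. Array weights moved the share of higher calls among genes to 399 of 1298, against 59 of 135, and the block to 275 of 1192. No paired analysis was possible because the titles of the strains share only 1 number. Signals below 6 and the 3 arrays per strain limit what could be detected.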
